A study of Arabidopsis thaliana with 15 samples.

Results

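The 10 genes described here are plant defensin genes and the ethylene and jasmonate response genes of the ERF branch. They were chosen by gene identifier from the 33024 genes of the count table, with earlier results of these data known. They are the defensins PDF1.1 (AT1G75830), PDF1.2A (AT5G44420), PDF1.2B (AT2G26020), PDF1.2C (AT5G44430) and PDF1.3 (AT2G26010), the transcription factors ORA59 (AT1G06160, listed as ERF094) and ERF1B (AT3G23240), and the defence genes PR4 (AT3G04720, listed as HEL), CHI-B (AT3G12500) and ACT (AT5G61160). All 10 passed the filter on low counts. Because of how the genes were chosen, counts of them set beside shares of all genes are descriptions only. The series measured messenger RNA by sequencing in leaves of Arabidopsis thaliana, ecotype Columbia-0, sampled at 21 days from greenhouse plants, to compare the type 1 protein phosphatase subunits TOPP with PP1R3, which the series title names as their regulatory subunit. Each of 5 groups has 3 libraries: wild type, the single mutants pp1r3-2 and topp4-1, their double mutant pp1r3-2 topp4-1, and topp-7m, a topp septuple mutant. As background, topp4-1 is known as a dominant-negative allele of TOPP4, which the labels do not state, and they name neither the genes mutated in topp-7m nor the kind of lesion in pp1r3-2. The labels do not say whether the libraries came from separate plants or pools, so a p-value here reflects the spread between libraries, which may be technical.

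Defensins of the PDF1 class are small cysteine-rich secreted peptides that inhibit fungal growth. In leaves PDF1.2 is the classic marker of the branch in which jasmonate and ethylene act together. There the ethylene factors EIN3 and EIL1 and jasmonate signalling raise the factors ORA59 and ERF1, which bind a GCC element in the promoters of PDF1.2 and of genes for chitin-binding and chitinase proteins. This branch is opposed by the MYC2 branch of the jasmonate response and by salicylic acid.

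The coding sequences are shown because the PDF1 genes are much alike, and reads that fit more than 1 copy could be split between them. Each has 243 bases. Letters in capitals differ from PDF1.2A, counted over the aligned 243 positions, and each sequence is read 5′ to 3′ from the RefSeq annotation of TAIR10.1. PDF1.2A (chr5:17906968-17907638, minus strand) and PDF1.2C (chr5:17908850-17909507, minus strand) lie 1211 bases apart. PDF1.3 (chr2:11087280-11088001, plus strand) and PDF1.2B (chr2:11089123-11089805, plus strand) lie 1121 bases apart, while PDF1.1 (chr1:28472357-28472898, plus strand) stands alone.
PDF1.2A: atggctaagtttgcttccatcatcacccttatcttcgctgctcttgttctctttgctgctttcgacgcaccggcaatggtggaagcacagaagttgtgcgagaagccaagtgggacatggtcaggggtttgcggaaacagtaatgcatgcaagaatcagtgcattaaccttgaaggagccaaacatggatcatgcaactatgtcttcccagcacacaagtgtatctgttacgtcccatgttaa
PDF1.2C: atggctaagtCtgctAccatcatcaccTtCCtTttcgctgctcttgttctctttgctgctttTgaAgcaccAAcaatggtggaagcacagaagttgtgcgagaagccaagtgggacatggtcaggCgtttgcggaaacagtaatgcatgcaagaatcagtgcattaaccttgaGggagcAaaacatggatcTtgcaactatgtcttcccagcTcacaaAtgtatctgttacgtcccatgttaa
PDF1.2B: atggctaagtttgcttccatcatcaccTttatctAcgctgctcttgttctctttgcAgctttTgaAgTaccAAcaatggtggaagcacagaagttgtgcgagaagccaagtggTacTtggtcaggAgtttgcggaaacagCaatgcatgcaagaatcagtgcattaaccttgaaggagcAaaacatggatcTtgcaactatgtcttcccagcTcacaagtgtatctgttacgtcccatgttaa
PDF1.3: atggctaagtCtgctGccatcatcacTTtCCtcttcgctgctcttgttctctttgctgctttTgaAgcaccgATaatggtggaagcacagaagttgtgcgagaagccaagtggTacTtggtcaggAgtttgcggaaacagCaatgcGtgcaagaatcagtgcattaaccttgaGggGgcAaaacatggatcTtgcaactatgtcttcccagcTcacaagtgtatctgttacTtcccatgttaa
PDF1.1: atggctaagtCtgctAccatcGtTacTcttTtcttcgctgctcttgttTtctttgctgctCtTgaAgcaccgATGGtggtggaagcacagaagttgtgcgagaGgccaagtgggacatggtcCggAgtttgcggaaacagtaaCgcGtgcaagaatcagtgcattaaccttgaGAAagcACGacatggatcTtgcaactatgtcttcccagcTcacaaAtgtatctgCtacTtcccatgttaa
Against PDF1.2A there were 15 differences in PDF1.2B, 16 in PDF1.2C, 21 in PDF1.3 and 30 in PDF1.1. Neighbours on 1 chromosome were not always the closest: PDF1.2C was nearest in sequence to PDF1.3, with 13 differences. The longest run without a difference, 72 bases, was between PDF1.2B and PDF1.3. Only coding bases were compared, and whether reads were shared between copies was not tested. Single values of PDF1.2A, PDF1.2B, PDF1.2C and PDF1.3 may thus be uncertain, and these 4 copies were also summed. PDF1.1, the most distant copy and known mainly from seeds, was left out of the sum.

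The core of the GCC element, GCCGCC, was looked for on both strands of the 500 bases before the annotated start of each gene. It was found in 5 of the 10 genes, against 4.1211% of 27420 protein-coding genes. The genes were chosen as a branch known for this element, so their share is no independent result. The stretches that hold the core are shown because GCC is the element that ORA59 and ERF1 proteins are known to bind. Each is printed 5′ to 3′ on the gene's own strand from TAIR10.1, with GCCGCC in capitals.
PDF1.2A: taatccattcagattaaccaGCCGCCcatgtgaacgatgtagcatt
PDF1.2B: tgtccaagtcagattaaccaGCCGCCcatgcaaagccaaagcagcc
PR4: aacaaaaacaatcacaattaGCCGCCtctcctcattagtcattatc
ORA59: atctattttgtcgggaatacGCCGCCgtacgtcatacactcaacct
ACT: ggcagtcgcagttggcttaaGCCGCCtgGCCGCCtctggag
The core lay 222 bases before the start of PDF1.2A (chr5:17907835-17907880, minus strand) and 143 before that of PDF1.2B (chr2:11088960-11089005, plus strand). The letters next to it are alike in these copies, so their finds are not separate. The core lay 388 bases before the start of PR4 (chr3:1287123-1287168, minus strand) and 230 before that of ORA59 (chr1:1882657-1882702, plus strand). ACT held it 21 and 13 bases before its start (chr5:24608564-24608604, plus strand). The other 5 genes, among them PDF1.2C and PDF1.3, held no such letters in this window. The G-box core CACGTG, the element MYC factors bind, was found in ORA59 alone, 194 bases before its start and not overlapping the GCC core, against 9.3399% of all genes.

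Total counts ran from 17962200 to 20756997 per library, and 20037 genes were tested. The TOPP4 transcript was present in topp4-1 at 34.6 to 38.2 CPM (the count scaled to library size), against 29.4 to 32.9 CPM in wild type and 5.04 to 5.65 CPM in topp-7m, and no gene was listed as PP1R3. Wild-type replicate 3 stood apart in the share of its counts from chloroplast genes, 0.0813% against at most 0.0208% in the others, so results that turn on it are given without it. The 7 leaf markers (Rubisco small subunits, light-harvesting proteins and Rubisco activase) summed to 32872 to 42312 CPM in wild type and to 19910 to 22794 CPM in topp4-1. In topp4-1 6 of them fell, where 26.5% of all genes did. They summed to 42624 to 50141 CPM in pp1r3-2 and 41285 to 47878 CPM in the double mutant, and 3 rose in each. Of all genes 10.9% and 7.66% rose there. In topp-7m, at 32958 to 40981 CPM, 1 rose and 2 fell, where 6.18% and 5.46% of all genes did. The 5 flower and meristem markers summed to 0.965 to 1.24 CPM in wild type and 4.75 to 8.09 CPM in topp4-1. PI had 0.229 ± 0.124 CPM of this in wild type and 5.24 ± 1.21 CPM in topp4-1 (SD, n = 3), and AP1 and AP3 were at 0 in at least 1 library of each genotype. By edgeR's quasi-likelihood test PI rose in topp4-1 (log2 change 4.48 ± 0.58, SE, adjusted p = 1.26e-05), pp1r3-2 (2.54 ± 0.62, 0.00971) and the double mutant (2.46 ± 0.62, 0.0164). In topp-7m it did not pass (1.82 ± 0.65, 0.0857). The 4 seed markers summed to 0.464 to 1.28 CPM in wild type and to at most 0.104 CPM in every mutant library. None of these seed markers passed the filter on low counts, so this difference was not tested. AT2S1 had 7 to 24 counts in wild type and at most 1 elsewhere, and CRC was at 0 throughout. The 5 root markers overlapped between genotypes, 105 to 292 CPM in wild type and 231 to 262 CPM in topp4-1, nearly all from BGLU23. The part of these organ differences in the results below was not tested.

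Per kilobase of transcript, wild-type leaves held PDF1.2A at 1061 ± 438 CPM per kb (SD, n = 3) and PDF1.3 at 867 ± 384. PR4 followed at 554 ± 263, PDF1.2C at 438 ± 215 and PDF1.2B at 269 ± 167 CPM per kb. These 4 defensins and the chitin-binding protein were thus far above ACT (24.4 ± 20.1), ORA59 (19.3 ± 4.41) and CHI-B (18.1 ± 17.95), all in CPM per kb. ERF1B stood at 2.90 ± 0.40 CPM per kb and PDF1.1 at 1.74 ± 0.43.

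**Figure D1:**
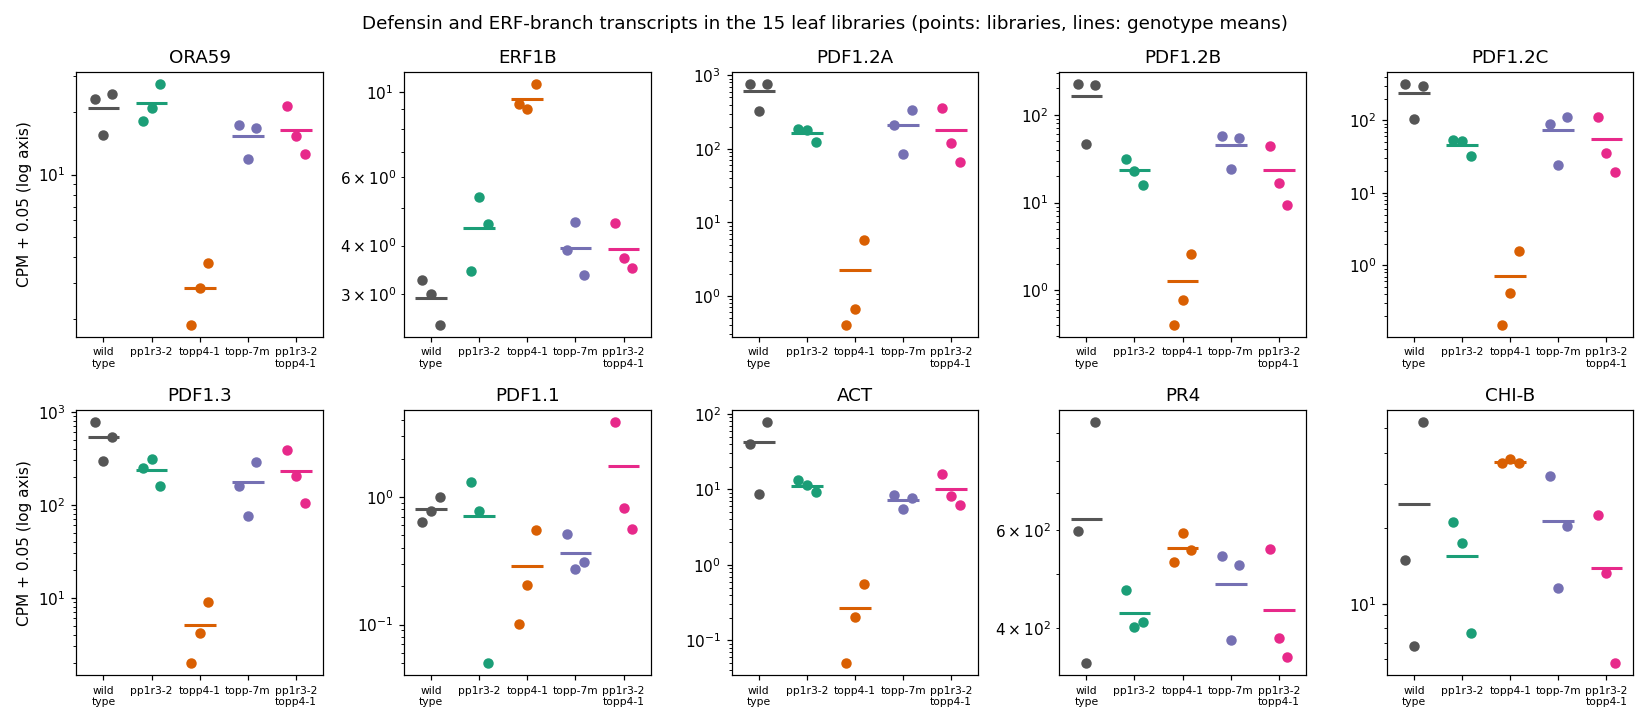
Level of each of the 10 genes in the 15 libraries, as CPM + 0.05 on a log axis, with 1 point per library and a line at each genotype's mean. In topp4-1 the points of ORA59, PDF1.2A, PDF1.2B, PDF1.2C, PDF1.3 and ACT lie below all others, and those of ERF1B above all others.

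ORA59, the factor through which jasmonate and ethylene together switch on PDF1.2, was low in topp4-1 alone of the 5 genotypes. Wild-type libraries held 23.0, 15.5 and 24.4 CPM, and pp1r3-2 libraries 18.1, 20.8 and 27.3 CPM. Those of topp-7m held 17.2, 11.9 and 16.8 CPM and those of the double mutant 21.3, 15.3 and 12.5 CPM. In topp4-1 they held 1.83, 2.79 and 3.70 CPM, from 36 to 81 counts. Every topp4-1 library lay below all others, wild type overlapped pp1r3-2, topp-7m and the double mutant, and the topp-7m libraries lay below those of pp1r3-2. By edgeR's quasi-likelihood test, adjusted over all genes tested, ORA59 fell by 2.91 ± 0.28 on the log2 scale against wild type (SE, adjusted p = 1.28e-06), a 7.50-fold lower level. In leaf RNA, fewer cells that express a gene and less RNA per cell cannot be told apart. In order of their means, pp1r3-2, wild type, the double mutant and topp-7m did not differ between neighbours (adjusted p from 0.363 to 0.918), while topp-7m and topp4-1 did (1.62e-05).

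ERF1B, the ethylene-responsive factor known as ERF1 and an activator of the same promoters, went the other way. Its 3 libraries held 3.22, 2.94 and 2.44 CPM in wild type and 9.25, 8.98 and 10.4 CPM in topp4-1. In pp1r3-2 they held 3.39, 5.30 and 4.50 CPM, in topp-7m 3.85, 4.56 and 3.30 CPM and in the double mutant 4.53, 3.66 and 3.44 CPM. Every mutant library lay above every wild-type library, and the topp4-1 libraries lay above all others. ERF1B rose in topp4-1 by 1.73 ± 0.20 (log2, adjusted p = 4.05e-06), 3.33-fold. From the topp4-1 mean the order went down through pp1r3-2 (adjusted p = 0.000261 for this step), topp-7m and the double mutant to wild type, and the later steps did not pass (adjusted p from 0.180 to 0.994). The 2 activators of the branch thus changed in opposite directions in topp4-1.

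The summed transcripts of PDF1.2A, PDF1.2B, PDF1.2C and PDF1.3 stood at 2076, 769.6 and 1821 CPM in the wild-type libraries and at 2.75, 5.83 and 18.7 CPM in those of topp4-1. In pp1r3-2 they stood at 519.8, 559.8 and 329.8 CPM, in topp-7m at 513, 208 and 792 CPM, and in the double mutant at 903, 378 and 199.7 CPM. The topp4-1 libraries were lowest by far, with 54, 113 and 408 counts where the others had at least 3537. The pp1r3-2 libraries lay below all of wild type, while topp-7m and the double mutant overlapped it through wild-type replicate 2. In topp4-1 the sum fell by 7.41 ± 0.94 (log2, adjusted p = 5.31e-05), 169.5-fold. Without topp4-1 replicate 3 the log2 change was -8.52, without wild-type replicate 3 it was -7.29, and over all 24 alternatives it ran from -8.52 to -7.002 (adjusted p from 8.63e-22 to 0.0025). The order of means was wild type, topp-7m, double mutant, pp1r3-2 and topp4-1, and only the last step passed the test (adjusted p = 0.000328).

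Singly, each of the 4 copies fell in topp4-1. PDF1.2A was at 759, 321 and 762 CPM in the wild-type libraries and at 0.356, 0.619 and 5.72 CPM in those of topp4-1. PDF1.2C went from 318, 104 and 297 CPM to 0.102, 0.361 and 1.51 CPM. PDF1.2B went from 225, 46.6 and 221 CPM to 0.356, 0.722 and 2.56 CPM. PDF1.3 kept the highest remnant, from 774, 297 and 541 CPM to 1.93, 4.13 and 8.87 CPM. For none of the 4 did the topp4-1 libraries overlap those of any other genotype. Against wild type 53.5% of all genes tested were called in topp4-1. The 4 copies also moved together (r from 0.9485 to 0.9951 over all libraries), so they are not 4 separate results. The log2 changes were -8.05 ± 1.07 (PDF1.2A, adjusted p = 8.64e-05), -8.44 ± 1.11 (PDF1.2C, 7.85e-05), -7.03 ± 0.96 (PDF1.2B, 0.000105) and -6.74 ± 0.80 (PDF1.3, 3.22e-05). They were -10.3, -10.0, -8.25 and -7.49 without topp4-1 replicate 3, whose counts of 33 to 194 per copy were the highest of the 3. Replicates 1 and 2 of topp4-1 held 7 and 12 counts of PDF1.2A, 2 and 7 of PDF1.2C, 7 and 14 of PDF1.2B and 38 and 80 of PDF1.3. The sizes of these changes thus rest on few reads.

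PDF1.1 was barely detected, with 11, 14 and 18 counts in wild type, 25, 13 and 0 in pp1r3-2, 1, 3 and 11 in topp4-1, 9, 4 and 5 in topp-7m and 70, 15 and 9 in the double mutant. Its topp4-1 level lay below wild type, 0.0508 to 0.503 CPM against 0.590 to 0.957 CPM, but the change of -1.61 ± 1.02 (log2) did not pass (adjusted p = 0.194), except with only the libraries compared (-1.62, 0.0472). The highest library was replicate 1 of the double mutant at 3.82 CPM. No step in its order of means passed the test (adjusted p from 0.391 to 0.915).

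ACT encodes an agmatine coumaroyltransferase, which makes antifungal hydroxycinnamic acid amides. Its libraries held 39.6, 8.67 and 77.8 CPM in wild type and 13.1, 11.3 and 9.11 CPM in pp1r3-2. In topp-7m they held 8.47, 5.44 and 7.70 CPM and in the double mutant 16.0, 8.15 and 6.10 CPM. In topp4-1 it was nearly gone, at 0, 3 and 11 counts or 0, 0.155 and 0.503 CPM, below every other library. Wild type spread the most, with replicate 2 within the range of the mutants. ACT fell in topp4-1 by 7.48 ± 0.99 (log2, adjusted p = 6.40e-05), by 8.99 without topp4-1 replicate 3 and by 6.70 without wild-type replicate 3.

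PR4, a hevein-like chitin-binding protein, and CHI-B, a basic chitinase, did not share this pattern. PR4 was at 599, 346 and 939.97 CPM in wild type, 469, 402 and 409.99 CPM in pp1r3-2, 526, 593 and 552 CPM in topp4-1, 539, 380.5 and 519 CPM in topp-7m and 555, 384 and 355 CPM in the double mutant. CHI-B was at 14.9, 6.76 and 52.9 CPM in wild type, 21.2, 17.5 and 7.63 CPM in pp1r3-2, 36.3, 37.6 and 36.5 CPM in topp4-1, 32.2, 11.6 and 20.4 CPM in topp-7m and 22.5, 13.3 and 5.76 CPM in the double mutant. For both genes every mutant overlapped wild type. In topp4-1 the log2 change was -0.17 ± 0.27 for PR4 (adjusted p = 0.615) and 0.57 ± 0.69 for CHI-B (0.514). Both varied little between the topp4-1 libraries, 525.9 to 593 CPM and 36.3 to 37.6 CPM. Without wild-type replicate 3 the CHI-B change was 1.75 and passed (adjusted p = 0.0379). CHI-B shares 861 bases with the antisense RNA gene AT3G12502, which had 0 to 4 counts per library.

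Against wild type, topp4-1 thus had 1 of the 10 genes higher and 6 lower, in a comparison where 53.5% of all genes tested were called, 27% as higher and 26.5% as lower. Their median change was -4.82 (log2), against 0.01 over all genes tested. The 6 lower genes include the 4 PDF1 copies, which moved together and are not separate results. This median, and the counts of the 10 genes here and below, take each copy singly. The median lay between the changes of ORA59 (-2.91) and PDF1.3 (-6.74). The 7 called genes were also called by DESeq2, which called 7 in all. CHI-B made 8 without wild-type replicate 3.

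**Figure D2:**
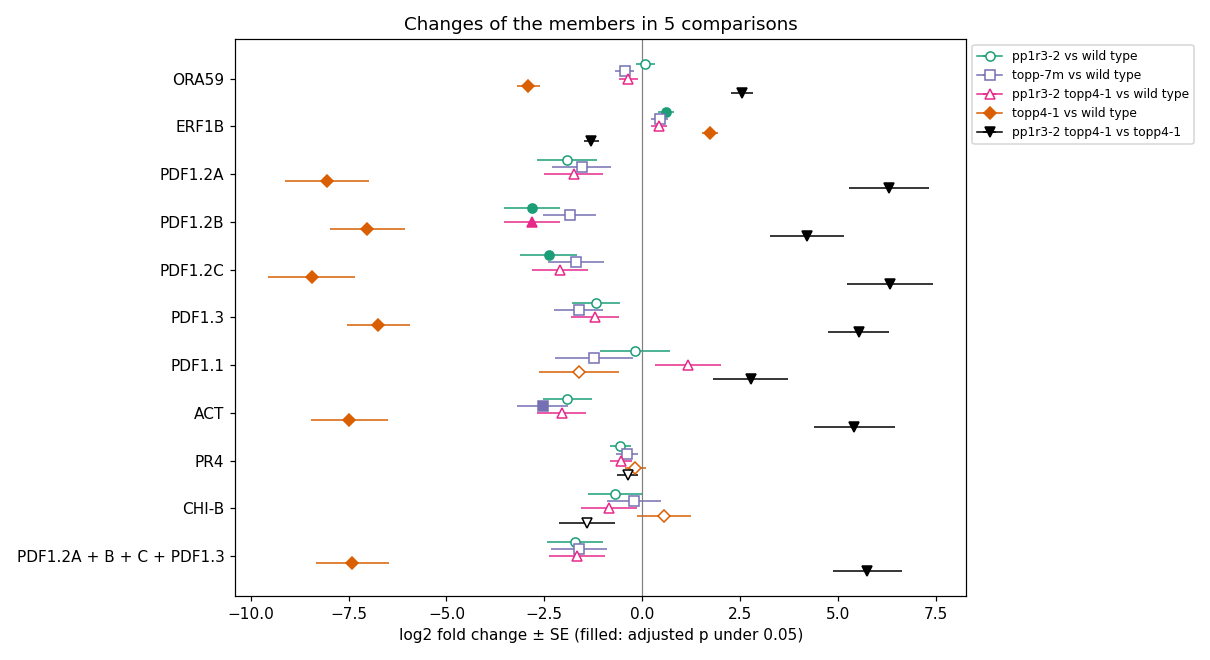
Log2 fold changes with SE of the 10 genes and of the summed PDF1 copies in 5 comparisons, filled where the adjusted p was under 0.05. The topp4-1 changes lie between -8.44 and -2.91 for the 6 genes that fell, and those of the double mutant against topp4-1 lie on the other side of 0 for the same genes.

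The double mutant was compared with topp4-1 to ask whether pp1r3-2 alters the effect of the topp4-1 allele. Against topp4-1, 7 of the 10 genes were higher and 1 lower in the double mutant, with 43.3% of all genes called, 21.4% as higher and 21.9% as lower. ORA59 rose by 2.55 ± 0.28 (log2, adjusted p = 6.15e-06) and ERF1B fell 2.46-fold (log2 SE 0.20, adjusted p = 7.10e-05). The summed PDF1 copies rose by 5.75 ± 0.88 (adjusted p = 0.000288), 53.8-fold. The copies singly rose by 6.30 ± 1.02 (PDF1.2A), 6.34 ± 1.09 (PDF1.2C), 4.21 ± 0.95 (PDF1.2B) and 5.53 ± 0.77 (PDF1.3), all on the log2 scale, and ACT by 5.42 ± 1.04 (adjusted p = 0.00133). In each of these genes every double mutant library lay on the far side of every topp4-1 library.

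These sizes rest in part on single libraries. Without topp4-1 replicate 3 the log2 rises were 6.86 (sum), 8.54 (PDF1.2A), 7.89 (PDF1.2C), 5.43 (PDF1.2B), 6.27 (PDF1.3) and 6.93 (ACT). Without double mutant replicate 1 they were 4.99 for the sum, 5.33 for PDF1.2A and for PDF1.2C, and 3.39 for PDF1.2B (adjusted p = 0.0196). PDF1.1 rose by 2.77 ± 0.96 (adjusted p = 0.0299), but this call was lost without topp4-1 replicate 1 (0.106) or 2 (0.0949) or double mutant replicate 1 (log2 change 1.39, adjusted p = 0.283). It was 3.98 without topp4-1 replicate 3. PR4 changed by -0.37 ± 0.27 (0.292) and CHI-B by -1.41 ± 0.71 (0.135), neither of which passed, though CHI-B did with only the libraries compared (-1.39, 0.0466).

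The difference between the topp4-1 effects in the 2 backgrounds, pp1r3-2 less wild type, passed the test in 7 of the 10 genes, 6 positive and 1 negative, with 38.3% of all genes called, 19% as positive and 19.3% as negative. It was 7.48 ± 1.12 for the sum (log2, adjusted p = 0.000352), 2.47 ± 0.37 for ORA59 (0.000147), -1.91 ± 0.28 for ERF1B (9.47e-05) and 7.33 ± 1.22 for ACT (0.000658). The effect of topp4-1 on the sum was -7.41 in the wild-type background and 0.07 ± 0.70 in pp1r3-2 (adjusted p = 0.997). Without topp4-1 replicate 3 the difference was 8.60 for the sum and 8.85 for ACT, without double mutant replicate 1 it was 6.73 for the sum, and without wild-type replicate 3 it was 7.36 for the sum and 6.55 for ACT. PDF1.1 missed the threshold (2.95 ± 1.33, adjusted p = 0.093) and passed without pp1r3-2 replicate 1 (3.88, 0.0485) or double mutant replicate 3 (3.38, 0.0429). PR4 and CHI-B did not pass (0.19 ± 0.38 and -0.72 ± 1.00).

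The same 7 genes as in the comparison with wild type also separated topp4-1 from the other lines. Against pp1r3-2, topp4-1 had 1 of 10 higher and 6 lower, with 43.4% of all genes called (21.3% higher, 22% lower), and the sum fell by 5.68 ± 0.88 (log2, adjusted p = 0.000328). Against topp4-1, topp-7m had 6 of 10 higher and 1 lower, with 37.8% of all genes called (19.3% higher, 18.5% lower), and the sum rose by 5.78 ± 0.88 (adjusted p = 0.000417). Without topp4-1 replicate 3 these changes of the sum were -6.79 and 6.89. With only the libraries compared, PR4 (0.37, adjusted p = 0.00865) and CHI-B (1.24, 0.0342) also passed as higher in topp4-1 than in pp1r3-2. Both comparisons share the topp4-1 libraries with the 2 above.

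In pp1r3-2 against wild type 1 of the 10 genes rose and 2 fell, with 19.3% of all genes called, 10.9% as higher and 8.33% as lower. PDF1.2B was at 31.7, 22.6 and 15.6 CPM, below all wild-type libraries, and fell by 2.81 ± 0.71 (log2, adjusted p = 0.0187). PDF1.2C, at 53.8, 51.4 and 32.3 CPM, was also below all wild-type libraries and fell by 2.39 ± 0.73 (0.043). ERF1B rose by 0.61 ± 0.20 (0.0466). The sum changed by -1.73 ± 0.72 (adjusted p = 0.12), PDF1.2A by -1.92 ± 0.77 (0.109), PDF1.3 by -1.17 ± 0.61 (0.213) and ACT by -1.91 ± 0.62 (0.0525), none of which passed. ORA59 stood at 0.08 ± 0.24 (0.863).

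The 3 calls in pp1r3-2 lay near the threshold. PDF1.2B lost its call when wild-type replicate 3 was left out (adjusted p = 0.0576), or pp1r3-2 replicate 2 (0.0567) or 3 (0.0801). That of PDF1.2C was lost without wild-type replicate 1 (0.094) or 3 (0.108), or any pp1r3-2 library (0.0888, 0.0937 and 0.147). In the shared fit it was also lost without topp4-1 replicate 1 (0.0518) or 2 (0.0589), topp-7m replicate 1 (0.0582) or 3 (0.0513) or double mutant replicate 2 (0.0532). ERF1B lost its call without any of the wild-type libraries (0.0554, 0.1 and 0.178) or pp1r3-2 replicate 2 (0.173) or 3 (0.126). The same held without any topp4-1 library (0.0682, 0.0656 and 0.0656), topp-7m replicate 1 (0.0553) or double mutant replicate 2 (0.0574). Without wild-type replicate 2, PR4 (-0.85, adjusted p = 0.0166) and ACT (-2.39, adjusted p = 0.0033) passed as lower. ACT also passed as lower with DESeq2 (-1.92, 0.0487), with at least 1 CPM in 3 libraries (-1.93, 0.0458) and with no robust spread (-1.91, 0.0238). ERF1B also lost its call with RLE scaling (0.0527), with the filter of at least 1 CPM in 3 libraries (0.0528) and with only the libraries compared (0.13). That last setting ended the call of PDF1.2B as well (0.0681), while PDF1.2A (-1.93, 0.013) and the sum (-1.74, 0.0277) passed.

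In topp-7m against wild type 1 of the 10 genes was called, with 11.6% of all genes called (6.18% higher, 5.46% lower), a share near that of these genes. ACT fell by 2.54 ± 0.65 (log2, adjusted p = 0.0265), all 3 libraries lying below wild type. Leaving out wild-type replicate 3 ended the call (adjusted p = 0.101), as did leaving out any topp-7m library (0.0631, 0.0958 and 0.0921) or fitting only the libraries compared (0.162). The sum changed by -1.63 ± 0.71 (0.178), ORA59 by -0.45 ± 0.25 (0.268) and ERF1B by 0.44 ± 0.21 (0.189), which did not pass. PDF1.2B passed without wild-type replicate 2 (-2.29, adjusted p = 0.0422).

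In the double mutant against wild type 1 of the 10 genes was called as well, with 13.1% of all genes called (7.66% higher, 5.47% lower), again a share near that of these genes. PDF1.2B, at 43.6, 16.8 and 9.43 CPM, lay below all wild-type libraries and fell by 2.82 ± 0.71 (log2, adjusted p = 0.0251). The call was lost without wild-type replicate 1 (0.0551) or 3 (0.0784) or double mutant replicate 2 (0.0831) or 3 (0.101), and the change was -3.64 without double mutant replicate 1. It was also lost with only the libraries compared (0.143). The sum changed by -1.66 ± 0.71 (0.155), ORA59 by -0.36 ± 0.25 (0.363), ERF1B by 0.43 ± 0.21 (0.180) and ACT by -2.06 ± 0.63 (0.0525), none past the threshold. ACT passed without wild-type replicate 2 (-2.54, 0.00353) or double mutant replicate 1 (-2.56, 0.049). It also passed with DESeq2 (-2.06, 0.0385), with at least 1 CPM in 3 libraries (-2.07, 0.0466) and with no robust spread (-2.06, 0.023). PR4 passed without wild-type replicate 2 (-0.83, 0.0263) and PDF1.2C without double mutant replicate 1 (-3.11, 0.0252). The 4 comparisons with wild type share its 3 libraries.

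Between pp1r3-2, topp-7m and the double mutant none of the 10 genes was called by edgeR or by DESeq2. For the double mutant against pp1r3-2, 0.0349% of all genes were called and 0 of the 10 had an unadjusted p under 0.05. For topp-7m against pp1r3-2 the share was 1.71% (0.454% higher, 1.26% lower) and 1 of the 10 had such a p (ORA59, -0.53 ± 0.25). For topp-7m against the double mutant it was 2.83% (0.818% higher, 2.01% lower) with 1 such gene (PDF1.1, -2.39 ± 0.94). The sum differed by 0.07 ± 0.70, 0.10 ± 0.70 and 0.03 ± 0.70 (log2) in these 3 comparisons, and with these SEs a difference of that size was not detectable.

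The libraries of a genotype differed more in the defensins than in most genes. The biological coefficient of variation was 75.0% in PDF1.2A, 70.2% in PDF1.2C, 63.9% in PDF1.2B and 53.2% in PDF1.3, which are the 98.6 to 99.8 percentiles of the genes tested, against a median of 12.5%. CHI-B (58.1%), ACT (59.0%) and PDF1.1 (73.6%) were as variable. The factors were steadier, 21.2% for ORA59 and 15.1% for ERF1B, as was PR4 at 23.1%. The same libraries were high or low across the genes. Wild-type replicate 2 was lowest of its genotype for 8 of the 10, topp-7m replicate 2 for 9 and topp4-1 replicate 1 for 9. In the double mutant replicate 1 was highest and replicate 3 lowest for 10 of 10.

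The 4 summed copies moved together, with Pearson's r of log2 CPM between 0.9485 and 0.9951 over the 15 libraries and between 0.8982 and 0.9658 after each genotype's mean was taken off. ORA59 followed them with r from 0.9002 to 0.9683 over all libraries and from 0.7654 to 0.8394 within genotypes. ERF1B had r from -0.8994 to -0.8764 with the same copies over all libraries and from 0.05982 to 0.1356 within genotypes. These are descriptions over libraries that share genotype, growth and depth. PR4 and CHI-B paired with each other, r = 0.832 over all libraries and 0.894 within genotypes.

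**Figure D3:**
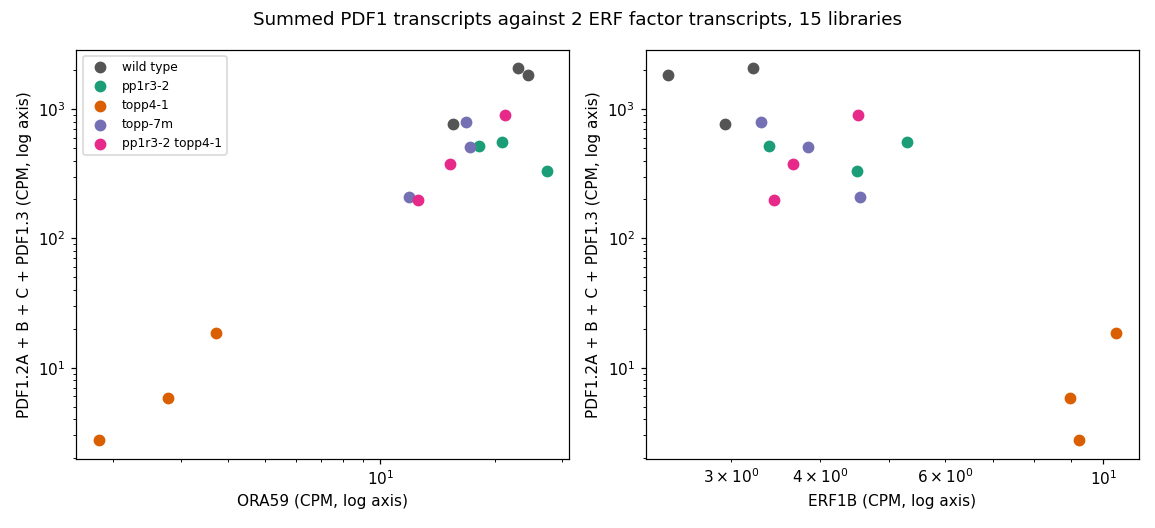
Summed PDF1 transcripts against ORA59 (left) and ERF1B (right), CPM on log axes, with 1 point per library. The 3 topp4-1 libraries lie apart at low PDF1 with low ORA59 and high ERF1B, and wild type holds the highest PDF1 levels without the highest ORA59.

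The summed PDF1 copies were also set against ORA59 library by library. The ratio of the summed PDF1 CPM to the ORA59 CPM was 90.3, 49.7 and 74.7 in the wild-type libraries and 28.7, 26.9 and 12.1 in pp1r3-2. It was 29.8, 17.5 and 47.1 in topp-7m, 42.5, 24.8 and 15.9 in the double mutant and 1.5, 2.09 and 5.04 in topp4-1. Every mutant library had a lower ratio than every wild-type library. With 3 libraries a side the two-sided exact permutation test gave p = 0.1 for each mutant, the smallest it can give, so none could pass (adjusted p = 0.114 over 8 such tests).

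The make-up of the sum was compared in the same way. PDF1.3 gave 37.3, 38.6 and 29.7% of the summed counts in wild type, and 31.1 to 36.3% in topp-7m. In pp1r3-2 it gave 47.7 to 54.8%, in the double mutant 42.8 to 54.5% and in topp4-1 47.5 to 70.8%, in all 3 lines above every wild-type library. PDF1.2C gave 13.5 to 16.3% in wild type and 9.19 to 10.3% in pp1r3-2. The topp-7m share overlapped that of wild type (exact permutation p = 0.8), and the other 3 lines reached p = 0.1, the smallest possible (adjusted p = 0.114). How the counter assigned reads that fit several copies is not given in the sources used here, and the part of this in the shares was not tested.

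**Figure D4:**
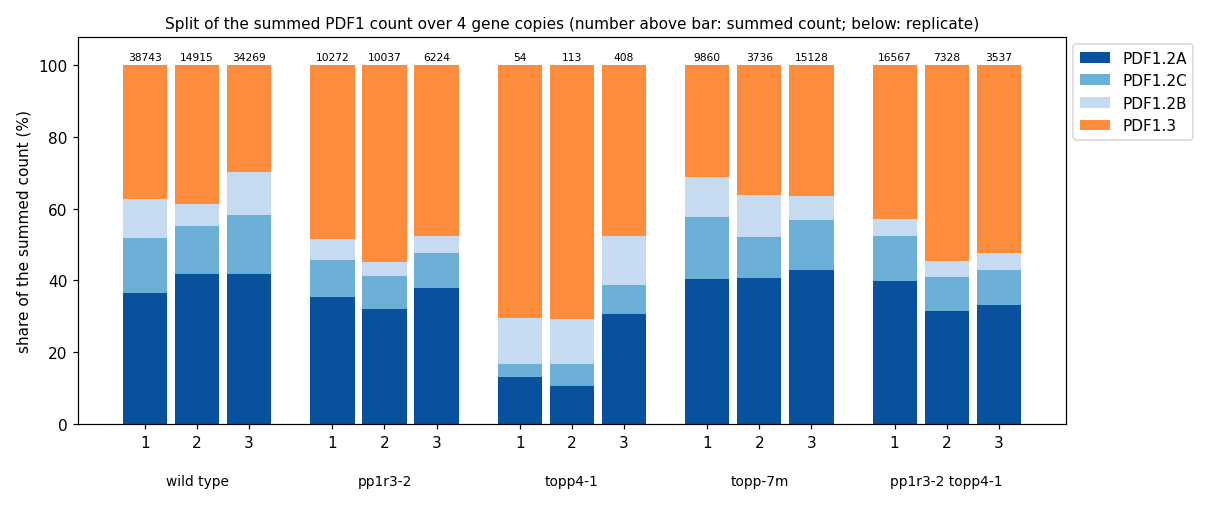
Share of the summed PDF1 count given by each of the 4 copies in each library, in %, with the summed count above the bar and the replicate number below. PDF1.3 takes 29.7 to 38.6% in wild type and 47.5 to 70.8% in topp4-1, where the summed counts are 54 to 408.

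Other genes of the pathway, from lists of 63 genes also chosen with earlier results known, were examined in the same fit. Their counts in topp4-1 stand against 27% of all genes tested called higher and 26.5% lower, and those in pp1r3-2 against 10.9% and 8.33%. Of 12 ethylene receptor and signalling genes, 9 rose and 1 fell in topp4-1 against wild type, with a median of 0.37 (log2) against 0.01 for all genes tested. The list pools receptors with signalling factors, so neither the count nor the median gives the strength of ethylene signalling. The largest rises were ETR2 (0.94 ± 0.20) and ERS2 (0.88 ± 0.17), both ethylene receptors, and EIL1, a factor upstream of ERF1, fell by 0.30 ± 0.10. In pp1r3-2 4 rose. In topp-7m and the double mutant 0 of 12 were called, where 11.6% and 13.1% of all genes were. Of 8 ethylene synthesis genes 1 rose and 3 fell in topp4-1, a share near the 53.5% of all genes called. The ACC synthase ACS7 rose by 1.79 ± 0.33, from 7.06 ± 1.31 to 24.3 ± 2.32 CPM, while ACS11, another ACC synthase, fell by 1.89 ± 0.39.

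Of 9 tested among 13 other ERF genes, 3 rose and 3 fell in topp4-1, where 53.5% of all genes were called. ERF098 fell by 2.05 ± 0.57 and ERF15 by 1.46 ± 0.17, and ERF6 rose by 0.74 ± 0.21. Of 9 tested regulators of the branch, 8 rose, where 27% of all genes did, with a median of 0.64 (log2). TGA5, a bZIP factor of defence promoters, rose by 0.88 ± 0.09, WRKY70, a factor of the salicylic acid side, by 0.81 ± 0.15, and the jasmonate receptor COI1 by 0.48 ± 0.09. MYC2 was listed at 0 in all 15 libraries and was not tested. In pp1r3-2 2 of these 9 rose and 1 fell, and in topp-7m and the double mutant 3 rose and 1 fell, where 6.18% and 7.66% of all genes rose.

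Several targets of the opposing MYC branch were lower in each mutant. Of 6 such genes 4 fell in topp4-1, pp1r3-2 and topp-7m and 3 in the double mutant, where 26.5%, 8.33%, 5.46% and 5.47% of all genes fell. JAZ10, a jasmonate repressor and marker, went from 37.7 ± 13.2 CPM in wild type to 7.14 ± 0.40 in topp4-1, 3.31 ± 0.81 in pp1r3-2, 3.44 ± 0.98 in topp-7m and 5.09 ± 1.202 in the double mutant. TAT3, a tyrosine aminotransferase, fell by 1.94 ± 0.29 in topp4-1 and by 2.07 ± 0.29 in pp1r3-2. CLH1, a chlorophyllase, fell by 4.49 ± 0.31 in topp4-1 and by 1.62 ± 0.27 in the double mutant. The vegetative storage protein genes VSP1 and VSP2 passed the test in none of the 4 mutants, with log2 changes of 0.21 ± 0.72 and 0.66 ± 0.68 in topp4-1.

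Of 8 other defensin genes 5 were tested, and in topp4-1 2 rose and 2 fell, where 27% of all genes rose and 26.5% fell. PDF1.4 rose by 2.40 ± 0.25, from 10.14 ± 3.23 to 53.6 ± 3.32 CPM, and was also higher in pp1r3-2 (1.54 ± 0.25), topp-7m (1.32 ± 0.25) and the double mutant (1.16 ± 0.25). PDF2.1, at under 1 CPM, rose by 1.37 ± 0.50, PDF2.3 fell by 1.88 ± 0.15 and PDF2.2 by 0.97 ± 0.32. The fall of the defensins in topp4-1 was thus not shared by the whole family. All 3 genes around agmatine conjugates fell there, as did 26.5% of all genes. DTX18, the exporter of the amides that ACT makes, fell by 4.32 ± 0.33, from 104 ± 38.1 to 5.18 ± 1.61 CPM, and the arginine decarboxylases ADC2 and ADC1 fell by 1.097 ± 0.18 and 0.80 ± 0.13. Of 3 salicylic acid marker genes PR1 (1.34 ± 0.16) and BGL2 (1.32 ± 0.18) rose in topp4-1 and PR5 (0.56 ± 0.24, adjusted p = 0.0607) did not pass, while in pp1r3-2 all 3 fell, where 8.33% of all genes did.

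**Figure D5:**
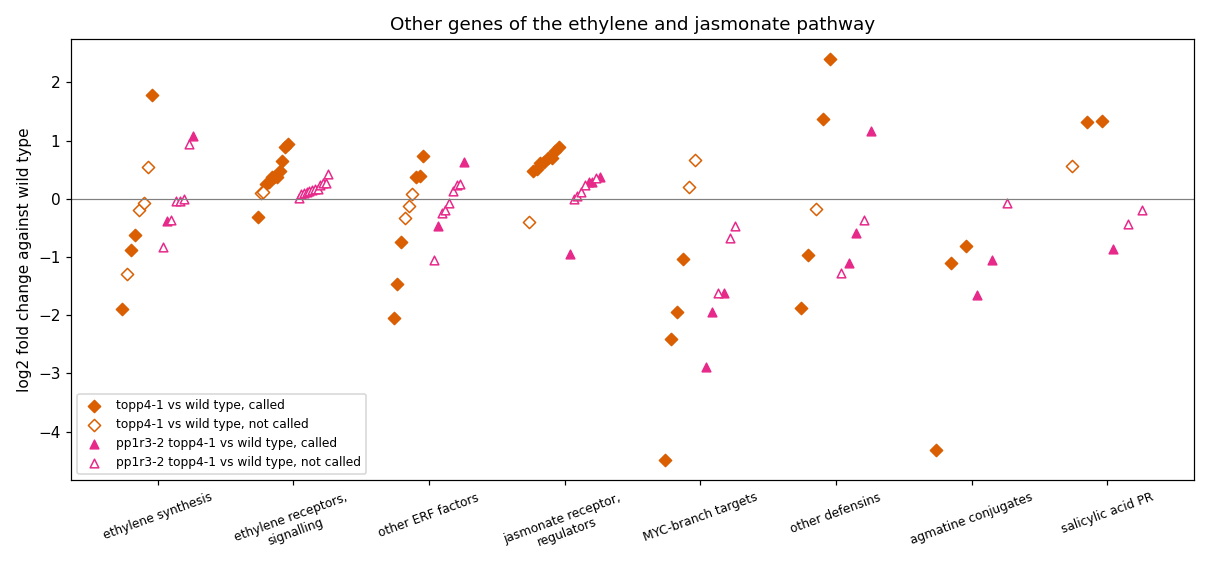
Log2 fold changes against wild type of the tested genes of 8 pathway lists, in topp4-1 and in the double mutant, 1 point per gene and filled where called. In topp4-1 9 of 12 ethylene receptor and signalling genes lie above 0 as called, where 27% of all genes were called higher. In the double mutant 0 of 12 are called, where 13.1% of all genes were.

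The genes most like these in pattern were sought by Pearson's r of log2 CPM over the 15 libraries among 8502 tested genes with a symbol and a mean of at least 5 CPM. The summed PDF1 copies were followed most closely by the glutathione transferase gene GSTU13 (r = 0.986, from 79.3 CPM in wild type to 13.4 CPM in topp4-1) and the lectin-like gene LEC (r = 0.9815, 341 to 33.5 CPM). CYS5 (0.98), FLA2 (0.978) and WAVH2 (0.977) came next. For ORA59 the nearest were HAT1 (r = 0.98), GPAT8 (0.977), DTX18 (0.973), SDC (0.972) and UGT72B3 (0.97), of which DTX18 is also in the agmatine list. For ERF1B they were NHX2 (r = 0.969), IYO (0.962), MBD10 (0.961), ECT1 (0.952) and DDL (0.9515), all higher in topp4-1 than in wild type. PDF1.1, with its few counts, had no gene above r = 0.7825 (OCT1), followed by COQ3 (0.78), PDPK1 (0.759), PAE3 (0.747) and MENG (0.7455). No test was made of these likenesses, and the part of single genotypes in them was not tested.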

How the data were processed

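Gene counts for 15 leaf libraries, 5 genotypes with 3 each, were taken as the authors deposited them, as whole-number counts per gene. The submitters' processing notes name HISAT2 2.0.5 as aligner. Not given in the sources used here are the counter, whether it used strand, the annotation and the genome build. Of 33024 listed genes 32548 were found in TAIR10.1, and start and end were identical for 32532. Genes were kept by edgeR's filterByExpr (minimum count 10, minimum total 15), which left 20037. edgeR 4.0.16 in R 4.3.3 was used with TMM scaling and a robust quasi-likelihood fit over all 15 libraries (10 residual degrees of freedom). P-values were adjusted by Benjamini-Hochberg over all genes tested, with a threshold of 0.05. A sum row of the 4 PDF1 copies was tested in the same way. The fit was tested on simulated counts.

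The 10 genes and all lists were chosen with earlier results of these data known. The text names the 10 genes, in each list up to 2 of the highest and 2 of the lowest called log2 fold changes against wild type, and the 5 genes most alike in log2 CPM (prior count 2, mean of at least 5 CPM). The chosen list genes are given for topp4-1, except for some not reported here, and in part for the other lines. Alternatives were RLE scaling, no filter, at least 1 CPM in 3 libraries, no robust spread, the compared libraries alone, a replicate block, DESeq2 1.42.0 and each library left out. Deviations of same-numbered libraries correlated over 0.1 in 9 of 30 pairs (r from -0.337 to 0.514), so the numbers were not used to pair them. Between pp1r3-2 and the double mutant r was 0.256, 0.217 and 0.447 for replicates 1, 2 and 3. Between topp-7m and the double mutant it was 0.388, -0.0029 and 0.514, and between pp1r3-2 and topp-7m 0.229, 0.034 and 0.320. Whether same-numbered libraries of these lines were handled together was not tested.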

Additional observations from a re-analysis of the deposited data

Results flagged for a closer look

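The effect of topp4-1 differed between the pp1r3-2 and the wild-type background for 7 of the 10 genes and for the summed PDF1 copies, by edgeR's test of the interaction. On the log2 scale the effect in pp1r3-2 minus that in wild type was 8.72 for PDF1.2C, 8.22 for PDF1.2A, 7.02 for PDF1.2B and 6.70 for PDF1.3. It was 7.48 for the sum of these copies, 7.33 for ACT, 2.47 for ORA59 and -1.91 for ERF1B. Each was picked out because the difference between the 2 backgrounds passed the test, in a comparison where 38.3% of all genes did. Without topp4-1 replicate 3 the differences were 10.3 for PDF1.2C, 10.47 for PDF1.2A, 8.25 for PDF1.2B, 7.46 for PDF1.3, 8.60 for the sum and 8.85 for ACT. Without double mutant replicate 1 they were 7.71 for PDF1.2C, 7.25 for PDF1.2A, 6.20 for PDF1.2B and 6.73 for the sum, and without wild-type replicate 3 that of ACT was 6.55.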

How the results depend on the processing

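No result changed direction under any alternative while it was called. The 10 genes called in pp1r3-2 against wild type went from 3 to 1 with no filter and to 1 with the replicate block, and ran from 0 to 4 over the fits that left out a library. In topp-7m the count went from 1 to 2 with no robust spread and to 0 with only the libraries compared, and ran from 0 to 2 without single libraries. In the double mutant it went from 1 to 2 with at least 1 CPM in 3 libraries, to 3 with no robust spread, to 0 with only the libraries compared and to 2 with DESeq2, and ran from 0 to 3 without single libraries. With only the libraries compared the summed PDF1 copies passed in pp1r3-2 (-1.74, adjusted p = 0.0277). The cause was not tested. Over all genes, 2631 were called in the double mutant against wild type and 1342 with only the libraries compared. In the double mutant against pp1r3-2 7 were called, 3 with only the libraries compared and 60 with DESeq2. In topp-7m against pp1r3-2 the counts were 343, 160 and 787, and against the double mutant 567, 180 and 1048, in the same order. Without single libraries they ran from 2388 to 4367 in pp1r3-2 (3862 in full), from 1349 to 2779 in topp-7m (2334), from 1379 to 3008 in the double mutant, from 2 to 12, from 76 to 496 and from 205 to 739.

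With the replicate block the change of the summed PDF1 copies was -7.36 in topp4-1 (adjusted p = 0.000186), 5.78 in the double mutant against topp4-1 (0.00084), 7.32 for the difference between backgrounds (0.00105) and -1.54 in pp1r3-2 (0.181). The block ended the calls of PDF1.2C (-2.18, 0.0521) and ERF1B (0.61, 0.0551) in pp1r3-2 and of PDF1.1 in the double mutant against topp4-1 (2.42, 0.0616), and changed no other call of the 10 genes. Depth limits PDF1.1 most, with 0 to 70 counts. In topp4-1 it also limits ACT (0 to 11), PDF1.2C (2 to 33), PDF1.2B (7 to 56) and PDF1.2A (7 to 125).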
